A study of Mus musculus with 6 samples.

Results

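Serum amyloid A and a set of other acute-phase genes were followed in ras-expressing mouse keratinocytes given Anakinra, a recombinant form of the natural antagonist of the interleukin-1 receptor, or PBS. The genes were taken by name from the array and are Saa1, Saa2, Saa3, Hp, Steap4, Chi3l1 (current symbol Chil1), Ptx3, Orm1 and Cp. All 9 were on the array, with 12 probes, among 27573 gene names and 41174 probes in all. Keratinocytes are the main cell type of the epidermis, and here they came from newborn wild-type mice by an isolation that also yielded hair follicle buds. Every culture of both groups carried the v-ras-Ha oncogene, which was delivered by an adenovirus at 10 viral particles per cell according to the labels. Anakinra was added at 5 ug/ml to 3 cultures 5 hours after transduction, and 3 control cultures were given PBS. The cultures were kept 3 days longer, with fresh antagonist after 2 days, and the RNA of each was measured on 1 Agilent one-colour array. The labels do not say whether the cultures came from separate animals, so the p-values describe the spread of these cultures, and that spread may be technical. The design asks which genes differ when signalling through the interleukin-1 receptor is blocked in ras-expressing keratinocytes.

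Acute-phase proteins are blood and tissue proteins whose production is raised by inflammation. The liver is their best known source, where interleukin-1 and tumour necrosis factor act through NF-kB and C/EBP factors and interleukin-6 acts through STAT3. Epithelial cells, adipocytes and macrophages also make some of them. In the mouse, Saa1 and Saa2 are close copies of each other that are best known as liver genes carried on high-density lipoprotein, while Saa3 is made mainly outside the liver.

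The 250 bases before the annotated start of the genes are shown because NF-kB, C/EBP and STAT factors are the factors usually named for acute-phase genes. Windows came from RefSeq (GRCm38.p6) and 7 of the 9 genes matched. Hp and Orm1 did not match. Capitals mark matches, on either strand, to an NF-kB consensus, to the C/EBP pattern TTNNGNAA or to the STAT pattern TTCNNNGAA. Over all 32851 windows of that length, 3.9% held an NF-kB match, 36.8% a C/EBP match and 7.02% a STAT match. The Saa3 window lies at chr7:46715677-46715926 (minus strand), Saa1 at chr7:46742981-46743230 (minus strand) and Saa2 at chr7:46751583-46751832 (plus strand). The first of the windows of Cp lies at chr3:19956804-19957053, Chi3l1 at chr1:134181906-134182155 and Steap4 at chr5:7960222-7960471, all on the plus strand. Each is written 5′ to 3′ along its gene.
Saa3: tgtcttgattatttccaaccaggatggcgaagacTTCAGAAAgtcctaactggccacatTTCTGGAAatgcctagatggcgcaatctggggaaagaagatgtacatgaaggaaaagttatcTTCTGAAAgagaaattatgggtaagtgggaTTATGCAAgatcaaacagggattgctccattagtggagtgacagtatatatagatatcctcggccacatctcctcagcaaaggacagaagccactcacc
Saa1: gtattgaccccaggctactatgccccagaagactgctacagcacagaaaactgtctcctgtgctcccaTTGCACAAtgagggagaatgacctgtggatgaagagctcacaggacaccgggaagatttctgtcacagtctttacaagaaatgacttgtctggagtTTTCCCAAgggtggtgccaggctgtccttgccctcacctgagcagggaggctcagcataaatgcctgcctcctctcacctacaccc
Saa2: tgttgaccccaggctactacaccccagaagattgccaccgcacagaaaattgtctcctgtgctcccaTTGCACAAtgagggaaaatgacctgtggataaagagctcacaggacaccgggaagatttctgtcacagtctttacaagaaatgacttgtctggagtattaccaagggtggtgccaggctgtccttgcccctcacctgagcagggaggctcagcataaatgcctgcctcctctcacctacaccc
Cp: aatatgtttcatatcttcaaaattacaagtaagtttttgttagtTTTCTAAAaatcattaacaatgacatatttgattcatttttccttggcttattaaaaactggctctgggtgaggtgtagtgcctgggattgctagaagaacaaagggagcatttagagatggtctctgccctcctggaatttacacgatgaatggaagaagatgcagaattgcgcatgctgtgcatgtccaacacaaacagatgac
Chi3l1: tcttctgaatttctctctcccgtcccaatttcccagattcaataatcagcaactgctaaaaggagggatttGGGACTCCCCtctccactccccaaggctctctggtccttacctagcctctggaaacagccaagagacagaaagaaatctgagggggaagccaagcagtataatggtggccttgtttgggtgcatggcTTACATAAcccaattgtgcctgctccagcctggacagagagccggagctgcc
Steap4: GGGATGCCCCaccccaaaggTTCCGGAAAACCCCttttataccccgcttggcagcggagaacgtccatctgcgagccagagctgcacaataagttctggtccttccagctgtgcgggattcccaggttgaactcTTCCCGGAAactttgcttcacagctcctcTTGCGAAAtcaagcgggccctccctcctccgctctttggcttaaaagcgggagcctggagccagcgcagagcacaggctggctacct
Saa3 held 4 C/EBP matches and Saa1 held 2, while Saa2 held 1. The Saa1 and Saa2 windows were 94.8% identical in a pairwise alignment, against 48.9% for Saa3 and Saa1 and 48% for Saa3 and Saa2. Cp held 1 C/EBP match in each of 2 windows. Chi3l1 held 1 NF-kB match and 1 C/EBP match. Steap4 held 2 NF-kB matches, 2 C/EBP matches and 1 STAT match, and 1 of its C/EBP matches overlapped an NF-kB match. The Ptx3 window, not printed, held 1 C/EBP match. A match describes these letters only and is not a binding site.

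Of the 9 genes, 2 passed the test and both fell under Anakinra. They were Chi3l1, which encodes a secreted chitinase-like glycoprotein, and Cp, which encodes the copper-carrying ferroxidase ceruloplasmin. Chi3l1 was well above background on all 6 arrays and was 1.85-fold lower. Cp was well above background on 1 of the 3 Anakinra arrays, so the size of its fall is set by dim spots, with a log2 change of -2.98 that was -1.37 with normexp background correction. None rose, and 7 did not pass. Over all 16472 genes tested, 0.801% fell and 0.971% rose. The test was limma's, on the log2 processed signal minus the 75th percentile of its array, and a gene passed at a Benjamini-Hochberg adjusted p under 0.05 over all genes. Of the 4 genes above background on all 6 arrays, Chi3l1 had all 3 Anakinra values below the PBS values, Orm1 had all 3 above them, and Saa1 and Ptx3 overlapped. Over all genes tested, including those dim on some arrays, 13.8% had all Anakinra values below and 12.5% had all above. In the fit over every probe, 2 of the 12 probes fell, those of Cp and Chi3l1 (limma adjusted p = 0.0417 and 0.0458), against 0.501% of 24973 probes. The Cp probe entered that fit, too, through the PBS arrays alone. Each slide held arrays of both groups, and with slide as a blocking term 0 of the 9 genes passed, while 0.249% of all genes fell and 0.140% rose. When 1 array was left out at a time, 0 of the 9 passed except without Anakinra 2, where Saa3, Saa2 and Ptx3 passed lower and Cp and Chi3l1 did not pass. The Saa3 and Saa2 probes were not well above background on Anakinra 1 or 3, the arrays left in that group.

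Of the 9 genes, 5 lay near background on at least 1 Anakinra array, and array Anakinra 2 stood apart. All 12 probes were well above background on the 3 PBS arrays, and 5 were so on all 6 arrays. The share of probes well above background was 55.7%, 86.2% and 55.2% on Anakinra arrays 1, 2 and 3, against 66.3%, 61.9% and 70.5% on PBS arrays 1, 2 and 3. Anakinra 2 was the highest of the Anakinra arrays for all 12 probes, and 6 of them were well above background on it but not on Anakinra 1 or 3. Among all tested genes that were dim on some Anakinra array, 94.3% also had their highest Anakinra value on Anakinra 2. The 5 genes that entered the test through the PBS arrays alone were Saa2, Saa3, Hp, Cp and Steap4. Over the whole array 14.3% of tested genes entered that way, 44.1% of them had a change below 0, and their median change was 0.05. In 0.256% of them the gene fell, and in 1.87% the Anakinra values all lay below the PBS values. A gene enters this way only if it is well above background in PBS, so no count or median over these 5 genes is given as a result, and each is described by its own values. The part of the array-wide brightness of Anakinra 2 in the values below was not tested.

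**Figure D1:**
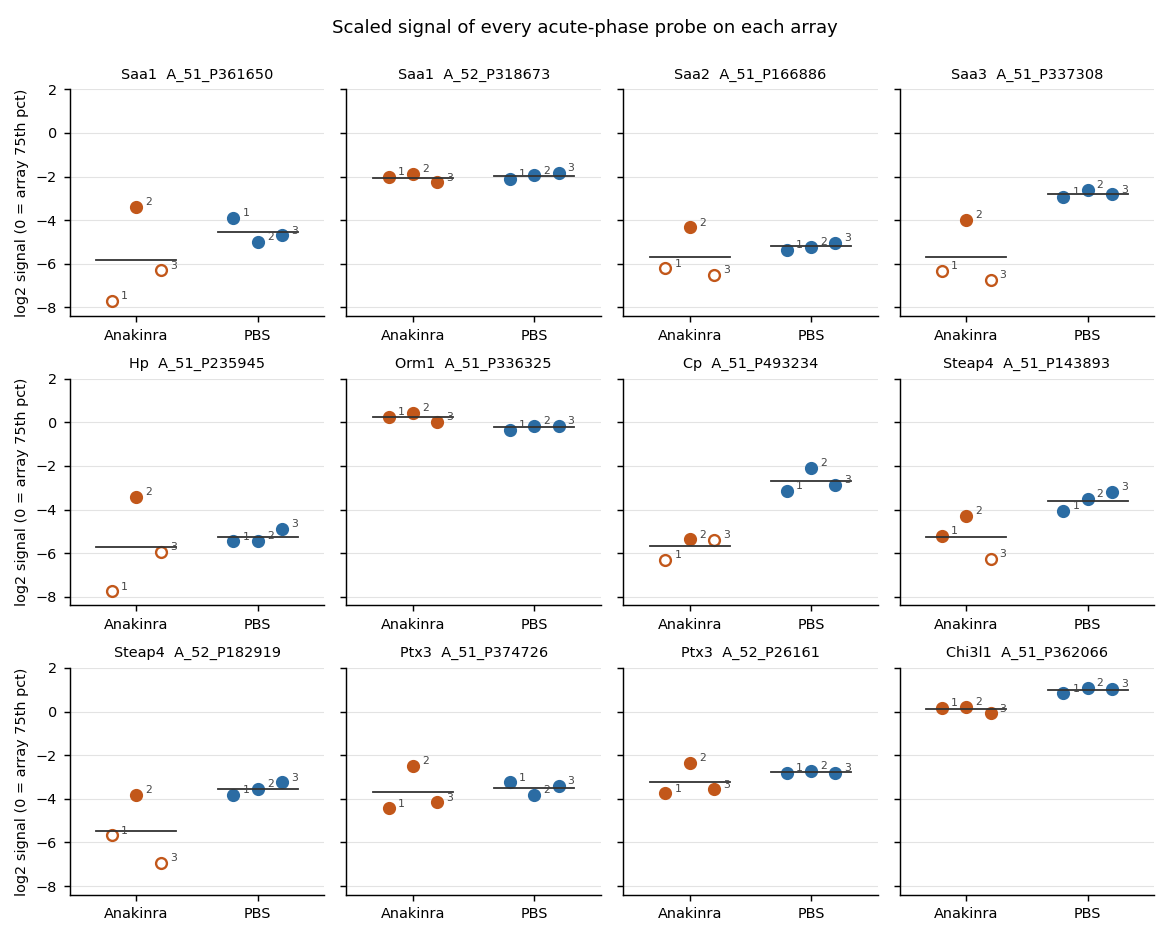
Each panel is 1 probe. The vertical axis is its log2 processed signal relative to the 75th percentile of the same array (0 on the axis), with Anakinra arrays 1 to 3 in orange on the left, PBS arrays 1 to 3 in blue on the right and a line at each group mean. Filled points were well above background and open points were not, and in all 12 panels array 2 is the highest of the Anakinra arrays.

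Among the serum amyloid A genes, which encode small apolipoproteins that bind lipid and attract leukocytes, Saa3 had the largest difference between the groups. Its processed signal, in the arbitrary units of the scanner, was 12.4, 68.4 and 10.1 on the Anakinra arrays 1, 2 and 3, against 112, 161 and 143 on the PBS arrays. All 3 Anakinra values lay below the lowest PBS value, and Anakinra 2 lay between the rest of its group and PBS. Saa3 averaged -5.68 ± 1.48 in Anakinra and -2.79 ± 0.17 in PBS on the scaled log2 axis (SD, n = 3 each). The log2 change was -2.89 ± 0.75 (SE), and it did not pass (limma adjusted p = 0.156, 95% interval of the change -4.77 to -1.01). The Saa3 probe was well above background on Anakinra 2 but not on Anakinra 1 or 3, so the size of the change is set by dim spots. When Anakinra 2 was left out, which left no Anakinra value well above background, the change was -3.73 and passed (limma adjusted p = 0.00650). It was -3.62 on slide 1 and -2.41 on slide 2, and -3.01 with slide as a blocking term (limma adjusted p = 0.299). With normexp background correction, which lifts dim spots to a positive floor, it was -1.16 and passed (limma adjusted p = 0.0240).

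Saa1 and Saa2 did not pass. The brighter Saa1 probe, A_52_P318673, read 249, 300 and 221 on the Anakinra arrays, against 202, 256 and 284 on the PBS arrays. These ranges overlap almost entirely, and the probe was well above background on all 6 arrays. The log2 change of Saa1 was -0.09 ± 0.13 (SE, limma adjusted p = 0.811), with a 95% interval of -0.43 to 0.25. A dimmer Saa1 probe, A_51_P361650, read 4.77, 103 and 13.5 on the Anakinra arrays, against 57.4, 30.7 and 38.7 on the PBS arrays. Here Anakinra 2 was above all PBS arrays while Anakinra 1 and 3 were below them, and the value on Anakinra 1 is the surrogate that the scanner software writes for a spot at background. That probe had a log2 change of -1.26 ± 1.13 (SE, limma adjusted p = 0.676 over 24973 probes). Saa2 read 13.5, 53.9 and 11.8 on the Anakinra arrays, against 21.3, 26.4 and 30.5 on the PBS arrays. Its groups overlapped in the same way, with a log2 change of -0.48 ± 0.60 (SE, limma adjusted p = 0.765, 95% interval -1.98 to 1.02). Without Anakinra 2 the Saa2 change was -1.15 and passed (limma adjusted p = 0.0431). The Saa2 probe was not well above background on Anakinra 1 or 3, so that fit set PBS against dim spots only. On the array design's build, mm8, the Saa3 probe A_51_P337308 lies at chr7:46580703-46580762, the brighter Saa1 probe at chr7:46608742-46608801 and the Saa2 probe A_51_P166886 at chr7:46622207-46622266. The dimmer Saa1 probe spans chr7:46608839-46609311, which is 473 bases. The design lists a Saa1 transcript among the accessions of the Saa3 probe, and cross-hybridisation between the close copies was not tested.

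The genes whose 6 values were most like those of Saa3 were ranked by Pearson correlation among 14063 genes above background on all arrays. They were Tspan33 and Gstp3 with r = 0.997, Chst7 with r = 0.996, Hsdl1 with r = 0.995 and the transcript AV166465 with r = 0.992. A correlation above 0.95 was found for 100 of these genes. The 6 points share the 2 groups and the brightness of Anakinra 2, so the correlations are a description. None of the 5 passed the test, and their log2 changes lay between -0.87 for Tspan33 and -0.16 for Hsdl1.

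Of the 2 metal-handling members, Cp and Steap4, Cp passed. Its probe A_51_P493234 (mm8 chr3:20181226-20181285) read 12.7, 26.2 and 25.3 on the Anakinra arrays, against 97.3, 230 and 137 on the PBS arrays. The highest Anakinra signal was well below the lowest PBS signal, and Anakinra 2 did not stand out from Anakinra 3. Cp averaged -5.69 ± 0.53 in Anakinra and -2.71 ± 0.54 in PBS on the scaled log2 axis (SD, n = 3 each). The log2 change was -2.98 ± 0.38 (SE, limma adjusted p = 0.0324). With normexp background correction the change of -1.37 also passed (limma adjusted p = 0.0194). It was -3.81 on slide 1 and -2.23 on slide 2, and a fit with slide as a blocking term gave -3.02 and no pass (limma adjusted p = 0.122). Leaving out each array in turn gave changes between -3.20 and -2.67 with limma adjusted p between 0.0526, without Anakinra 2, and 0.165, without PBS 2.

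Steap4, a membrane metalloreductase that reduces iron and copper and is induced by inflammatory cytokines, had changes below 0 on both of its probes and did not pass. Probe A_51_P143893 (mm8 chr5:7987245-7987304) read 26.9, 55.7 and 13.9 on the Anakinra arrays, against 51.8, 86.9 and 110 on the PBS arrays. On the scaled axis its groups did not overlap, although the raw reading of Anakinra 2 was above that of PBS 1. The log2 change of Steap4 was -1.67 ± 0.54 (SE, limma adjusted p = 0.232), and with normexp, where the other probe was the brighter and stood for the gene, it was -0.65 (limma adjusted p = 0.129). Probe A_52_P182919, which spans 1782 bases of the design at mm8 chr5:7984538-7986319, read 19.6, 77.7 and 8.61 on the Anakinra arrays, against 61.6, 83.5 and 106 on the PBS arrays. Its change was -1.94 ± 0.80 (SE, limma adjusted p = 0.370 over all probes), its groups overlapped, and its value on Anakinra 3 is a surrogate.

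Chi3l1 was bright on every array, and it fell. Its probe A_51_P362066 (mm8 chr1:136006282-136006341) read 1127, 1249 and 1008 on the Anakinra arrays, against 1534, 2094 and 2079 on the PBS arrays. The groups did not overlap, and the spread within each was small beside the gap. Chi3l1 averaged 0.10 ± 0.15 in Anakinra and 0.99 ± 0.14 in PBS on the scaled log2 axis (SD, n = 3 each). The log2 change was -0.89 ± 0.12 (SE, limma adjusted p = 0.0341), and it was -0.83 with normexp. It was -0.90 on slide 1 and -0.77 on slide 2, and a fit with slide as a blocking term gave -0.83 and no pass (limma adjusted p = 0.0965). Leaving out each array in turn, it lay between -0.97 and -0.80 with limma adjusted p between 0.0538, without Anakinra 2, and 0.246, without PBS 2.

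Orm1, which encodes the plasma carrier protein orosomucoid, was the 1 member with a change above 0. Its probe A_51_P336325 (mm8 chr4:62831810-62832417, a span of 608 bases) read 1181, 1458 and 1070 on the Anakinra arrays, against 673, 868 and 892 on the PBS arrays. Every Anakinra value was above every PBS value, and all were bright. The log2 change was 0.46 ± 0.13 (SE), which is 1.38-fold higher, and it did not pass (limma adjusted p = 0.178). Scaling each array by its median in place of the 75th percentile gave 0.13, while the median of all genes moved to -0.32. Orm1 belongs to a family of close copies, and the related genes Orm2 and Orm3 had log2 changes of 0.40 and 0.99 that did not pass either (limma adjusted p = 0.111 and 0.420).

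Hp, which encodes the haemoglobin-binding protein haptoglobin, and Ptx3, a long pentraxin that binds microbes and complement, did not pass. The Hp probe A_51_P235945 (mm8 chr8:112464401-112464460) read 4.64, 101 and 17.2 on the Anakinra arrays, against 19.5, 22.9 and 34.2 on the PBS arrays. Anakinra 2 was the highest of all 6 arrays and Anakinra 1, a surrogate value, the lowest. The log2 change of Hp was -0.45 ± 1.10 (SE, limma adjusted p = 0.904), -2.60 on slide 1 and 0.78 on slide 2, and 0.10 with normexp. Ptx3 was measured above background on all 6 arrays by both of its probes, which share 15 positions of the design around mm8 chr3:66313207-66313311. Probe A_52_P26161 read 74.2, 211 and 89.5 on the Anakinra arrays, against 123, 148 and 142 on the PBS arrays. Anakinra 1 and 3 were below PBS and Anakinra 2 above it. The log2 change of Ptx3 was -0.44 ± 0.38 (SE, limma adjusted p = 0.645), and without Anakinra 2 it was -0.87 and passed (limma adjusted p = 0.0343). Probe A_51_P374726 read 46.0, 193 and 59.4 on the Anakinra arrays, against 90.8, 69.5 and 95.3 on the PBS arrays, with a change of -0.21 ± 0.55 (SE, limma adjusted p = 0.915 over all probes).

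**Figure D2:**
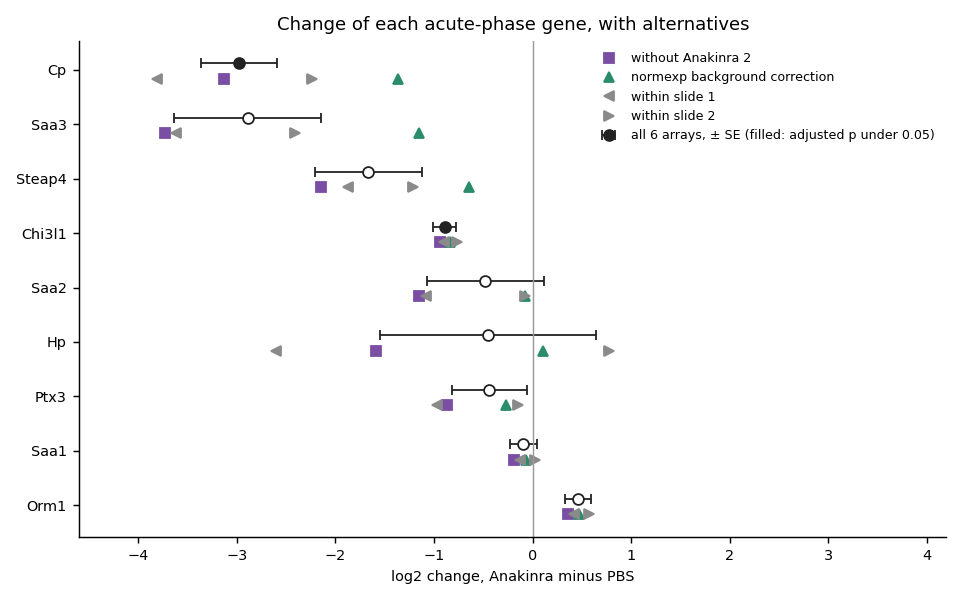
The horizontal axis is the log2 change, Anakinra minus PBS, of each gene, ordered by the change over all 6 arrays. Circles are that change ± SE, filled where the limma adjusted p was under 0.05, which holds for Cp and Chi3l1, and squares, upward triangles and sideways triangles give the change without Anakinra 2, with normexp background correction and within slides 1 and 2. Hp has values on both sides of 0, and Chi3l1 lies between -0.94 and -0.77 in all of them.

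Related genes were described by list. The lists were chosen with earlier results of these data known, so their counts beside the shares of all genes are descriptions. Other acute-phase proteins had 12 tested genes, of which 4 fell and 0 rose, beside 0.801% and 0.971% of all genes. Of the 12, 3 entered the test through the PBS arrays alone. The median log2 change of the 12 was -0.33. Those that fell were the central complement gene C3 at -3.18 ± 0.08, the iron-siderophore binder Lcn2 at -4.75 ± 0.35, and the metal-binding metallothioneins Mt2 at -0.88 ± 0.07 and Mt1 at -0.56 ± 0.07 (SE, limma adjusted p of 0.0311 or less). Like Cp and Saa3, Lcn2 entered through the PBS arrays and was well above background on 1 of the 3 Anakinra arrays, and with normexp its change was -2.92 (limma adjusted p = 0.00213). Hamp, which encodes the iron hormone hepcidin, was above background on no array. With slide as a blocking term, C3 and Mt2 passed. When 1 array was left out at a time, 1 to 3 of these genes passed, and C3 alone did without PBS 1, 2 or 3.

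Among 25 tested genes for transcription factors and signalling of the acute phase, 4 fell and 0 rose, beside 0.801% and 0.971% of all genes. Their median was -0.05, and 2 of the 25 entered through the PBS arrays alone. The cytokine genes Tnf at -2.63 ± 0.11 and Il1a at -1.51 ± 0.09 fell, as did the NF-kB inhibitor gene Nfkbia at -1.23 ± 0.08 and the NF-kB subunit gene Relb at -0.54 ± 0.08 (SE, limma adjusted p of 0.0448 or less). The C/EBP factor gene Cebpd was at -0.87 and did not pass (limma adjusted p = 0.0575). With slide as a blocking term, Tnf, Il1a and Nfkbia passed. When 1 array was left out at a time, 0 to 4 genes of the list passed, with 0 without PBS 2 and Tnf alone without PBS 1. Relb passed in none of these fits (limma adjusted p between 0.0825 and 0.247). Where 4 passed, the gene beside Tnf, Il1a and Nfkbia was Cebpd (without Anakinra 2) or another gene of the list, Nfkbiz (without Anakinra 3). Il6 was above background on no array.

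Receptor and handling genes were counted beside the 0.801% of all genes that fell and the 0.971% that rose. Of 8 tested genes for serum amyloid A receptors and partners, 1 fell, the innate receptor gene Tlr2 at -1.06 ± 0.10 (SE, limma adjusted p = 0.0152). The median of the 8 was -0.14, and 2 of them entered through the PBS arrays alone. Of 11 tested genes for copper and iron reductases and transport other than Cp and Steap4, 1 fell, the metalloreductase relative Steap1 at -0.75 ± 0.08 (SE, limma adjusted p = 0.0203), and the median was -0.10. Neither Tlr2 nor Steap1 passed with slide as a blocking term, and Steap1 passed in 1 of the 6 fits that left out an array (without Anakinra 2) and Tlr2 in 2 (without Anakinra 2 or PBS 3). None of the 10 haptoglobin and heme genes passed, where the iron store subunit gene Fth1 was at -0.45 and the iron exporter gene Slc40a1 at 0.86 (limma adjusted p = 0.0795 and 0.0929). None of 5 chitinase-like genes and partners other than Chi3l1 passed, with a median of -0.17. The galectin gene Lgals3 was at -0.22 and the chitinase gene Chit1 at -0.20 (limma adjusted p = 0.326 and 0.359). None of 7 pentraxin genes and partners other than Ptx3 passed, and 4 of them entered through the PBS arrays alone. The median of the 7 was 0.56, and it was -0.01 without Anakinra 2. The complement subunit gene C1qc was at 1.53 and the hyaluronan synthase gene Has2 at -0.56 (limma adjusted p = 0.0845 and 0.124). C1qc entered through the Anakinra arrays alone and was well above background on 2 of the 3 PBS arrays. The size of its change is therefore set by dim spots, and with normexp it was 0.42 (limma adjusted p = 0.129).

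**Figure D3:**
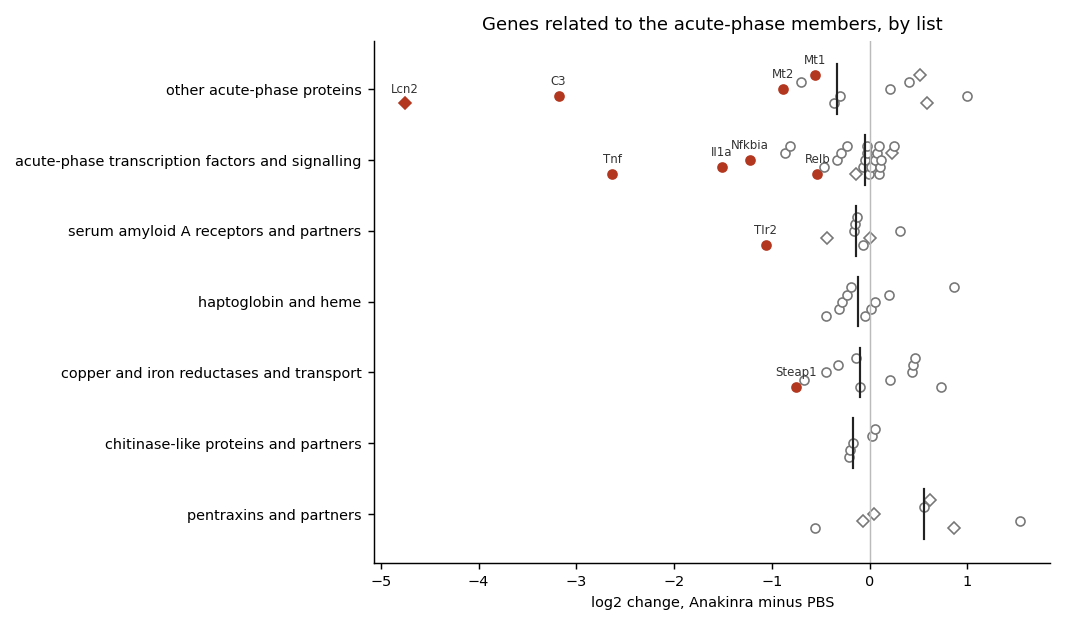
Each point is the log2 change, Anakinra minus PBS, of 1 tested gene of the named list, without the 9 members, and the vertical line is the median of the list. Filled points had a limma adjusted p under 0.05 and are named. Circles were well above background on all 3 Anakinra arrays and diamonds on fewer, and all 10 filled points lie below 0.

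The cultures carried the markers of keratinocytes, and markers of the liver were close to background. All 8 keratinocyte markers were above background on all arrays, with a summed scaled signal of 994 to 1087 in Anakinra and 1021 to 1148 in PBS. Of these markers 2 rose, beside 0.971% of all genes, a share that was 0.140% with slide as a blocking term. Of 6 hepatocyte markers 0 were above background on all arrays, with sums of 0.0491 to 0.473 in Anakinra and 0.0638 to 0.143 in PBS, and Apob was above background on none. All 9 fibroblast markers were above background on all arrays, with sums of 15.1 to 17.9 in Anakinra and 11.2 to 13.7 in PBS, and 2 rose, beside the same shares of all genes. Of 9 macrophage and leukocyte markers 5 were above background on all arrays, with sums of 4.18 to 4.42 in Anakinra and 4.26 to 4.77 in PBS. For adipocytes 1 of 7 markers was, with sums of 4.82 to 5.42 in Anakinra and 4.63 to 4.81 in PBS. For neutrophils 1 of 6 was, with sums of 0.144 to 0.755 in Anakinra and 0.147 to 0.264 in PBS. The sums for melanocyte markers (5 of 6) were 103 to 112 in Anakinra and 89.8 to 108 in PBS, and for endothelial markers (2 of 5) 1.83 to 1.97 in Anakinra and 2.02 to 2.13 in PBS. The part of these cells in the values above was not tested, and fewer cells of a type and less RNA per cell cannot be told apart.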

How the data were processed

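Total RNA of 6 keratinocyte cultures, 3 given Anakinra and 3 given PBS, was labelled and read on 6 one-colour Agilent arrays with Feature Extraction 9.5.3.1, per the file headers. The deposited intensity per spot was background-subtracted by the authors' scanner software, per the file headers, with surrogate values for spots at background and no scaling between arrays. The authors' deposited log2 value table equalled the log2 of that intensity plus 1 constant per array, to within 0.0005, and served as an alternative.

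Control spots and outlier-flagged spots were removed, and the 75th percentile of each array was subtracted on the log2 scale. Spots of a probe were averaged. To enter, a probe had to be well above background on each array of 1 group or both and to have 2 values or more per group, and the brightest such probe stood for its gene. All 9 members passed. The groups were compared over 16472 genes with lmFit and eBayes in limma 3.58.1 (R 4.3.3), two-sided, with Benjamini-Hochberg adjustment, and a second fit covered 24973 probes. Of 41174 probes, 23374 were named by RefSeq accession, 6733 by symbol, 2919 by synonym, while 8148 kept their names. Positions of probes follow the array design (mm8). No spot was saturated. The number of arrays limits the precision.

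The members and gene lists were chosen with earlier results of these data known. Named genes are all members, the called genes of each list or, where none was called, its 2 smallest p-values, and the 5 genes most like Saa3. Others (Orm2, Orm3, Cebpd, Nfkbiz, Hamp and Il6) were named after their values were seen. On simulated data with 200 of 16405 genes changed, the fit recovered 63.6% at a log2 change of 1 and 82.6% at a log2 change of 2, and 5.83% of calls were false. These rates were not split by brightness. They need not hold for dim members such as Saa3, whose SD was 1.48 in Anakinra and 0.17 in PBS. Slide 1 held Anakinra 1, PBS 2 and PBS 3, and slide 2 held Anakinra 2, Anakinra 3 and PBS 1. In all, 20 alternatives were run.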

Additional observations from a re-analysis of the deposited data

How the results depend on the processing

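Over 20 alternatives, between 0 and 3 of the 9 members passed lower, and 0 passed higher in each. These counts include members that entered through the PBS arrays alone, except where genes had to be above background on all arrays. The count was 2 in the reported fit and 3 with median scaling (Cp, Saa3 and Steap4), with array weights and with normexp (Chi3l1, Cp and Saa3 in both), and without Anakinra 2 (Saa3, Saa2 and Ptx3). It was 1 among the 4 members above background on all arrays (Chi3l1), 0 with no filter on dim probes and 0 with the slide as a block. Within slide 1 and within slide 2 it was also 0, but each slide holds 1 array of a group and 0 of all genes passed there, so those counts say nothing about the members. Leaving out 1 array at a time gave 0 to 3. Quantile scaling kept Chi3l1 and called Saa3 in place of Cp (limma adjusted p = 0.0689 for Cp), and with median scaling Chi3l1 did not pass (limma adjusted p = 0.647). Cp lay between -3.81 and -1.37 on the log2 scale and Chi3l1 between -1.22 and -0.77. Hp was above 0 in 3 alternatives (0.57 without Anakinra 1, 0.10 with normexp and 0.78 within slide 2), and Saa1 in 2 (0.02 without Anakinra 3 and 0.03 within slide 2). The causes were not tested.

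Over all genes, 132 passed lower and 160 higher. These were 42 and 6 with median scaling, 241 and 338 among genes above background on all arrays, 29 and 7 with no filter, 376 and 411 with limma's trend and robust options, 41 and 23 with the slide as a block, and 0 and 0 within slide 1 and within slide 2. Leaving out 1 array at a time gave 7 to 137 lower and 1 to 97 higher. With the replicate number as a block, 0 genes passed lower, 0 higher and 0 members. Deviations from the group mean of arrays with the same number correlated at 0.41, -0.49 and -0.21. Those of arrays with different numbers lay between -0.67 and 0.70. With 3 arrays per group these values cannot decide whether the numbers pair the cultures, and the labels do not say. Dim signal on the Anakinra arrays limits the size of the changes in Cp, Saa3, Saa2, Hp and Steap4.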
